A study of Saccharomyces cerevisiae with 593 samples.

Results

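The combined treatment was the exposure of wild-type Saccharomyces cerevisiae to 50 mM of the histidine synthesis inhibitor 3-aminotriazole (3-AT) and 1 M KCl at the same time. It was followed at 5, 10, 20 and 40 min on 2-colour arrays that held the RNA of treated cells against that of untreated wild-type cells taken at the same time, which the labels also call mock treated. The arrays were chosen by their titles, as those with both agents on the wild type, and 12 of the 593 arrays of the series met this. They came from 8 hybridisation pairs or single arrays, which gave 2 replicates at each time. Both replicates were set over the same kind of control, so no other control had to be kept apart. For comparison the wild type in 1 M KCl alone over untreated cells of the same time was used, with 30 arrays and 3 replicates at 5 min and 4 at each later time. The wild type in 50 mM 3-AT alone, with 22 arrays, had 3 replicates at 5, 10 and 20 min and 2 at 40 min, and its control was cells taken before treatment. Arrays of the wild type in 1 M KCl with the casein kinase inhibitor TBB were also used, over untreated cells and over KCl alone. They served to derive a further value of KCl alone at each time. No array used here had the combined treatment over cells before treatment, over 3-AT alone or over KCl alone. The labels name total RNA, extracted with acid phenol and labelled by incorporation of aminoallyl-dUTP. They do not name the strain beyond wild-type or say that replicates were separate cultures, so p-values measure spread between samples. That spread was estimated for each oligo over 73 replicated groups of the series, with other treatments and strains among them. A p-value or SE of the fit thus does not measure the spread of the 2 combined replicates by themselves.

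3-AT blocks an enzyme of histidine synthesis and so starves yeast of histidine. Uncharged tRNA then activates the kinase Gcn2, translation of the transcription factor Gcn4 rises, and Gcn4 raises the genes of amino acid synthesis. A high concentration of KCl draws water out of the cell, and the Hog1 kinase pathway responds by raising genes for glycerol production, ion export and stress protection. Both kinds of stress, like many others, are known to lower the genes for making ribosomes in yeast.

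The array carried 1536 oligos in 6 copies each, of which 1457 were named, for 982 genes. A value is the mean log2 ratio of treated over control of an oligo, so 1 stands for a 2-fold higher level and -1 for a 2-fold lower one. The files do not say which oligos lie in an exon, in an intron or across a junction, and where a gene had more than 1 oligo they are numbered here in the order of the array. Ratios carry no absolute level, so a level of one gene cannot be set against that of another, and fewer cells of a kind and less RNA per cell cannot be told apart. For the same reason a ratio cannot show whether a marker of another cell type was absent. Of 9 oligos for 6 genes that mark one mating type or meiosis (MFA1, MFA2, STE3, IME1, NDT80 and DMC1), 3 passed the test at some time. These were DMC1 oligo 1 and NDT80 oligo 2, higher at 5 min, and STE3, higher at 10 min. Over all named oligos 10.4% were higher at 5 min and 18.7% at 10 min. The other oligos of DMC1 and NDT80 did not pass at any time.

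The replicates differed in quality. Replicate 1 was 1 array per time, with the treated RNA in Cy5, and lacked 3.53% of its spots at 5 min, 25.6% at 10 min, 29.9% at 20 min and 20.3% at 40 min. Replicate 2 was a dye-swapped pair of arrays per time, each lacking between 10.7% and 13.7%. The single arrays of replicate 1 correlated with the dye effect of swapped pairs at 0.68, 0.47, 0.51 and 0.31 at the successive times, across oligos. The correlation of the replicates across oligos was 0.38 at 5 min (1453 oligos), 0.39 at 10 min (1381), 0.46 at 20 min (1321) and 0.61 at 40 min (1399). With the dye effect taken out of replicate 1 it was 0.47, 0.43, 0.49 and 0.62. Replicate 1 spread more widely over oligos, with an SD of 0.90 at 10 min against 0.48 in replicate 2. Results are therefore given for each replicate, and those that rest on one are named.

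**Figure D1:**
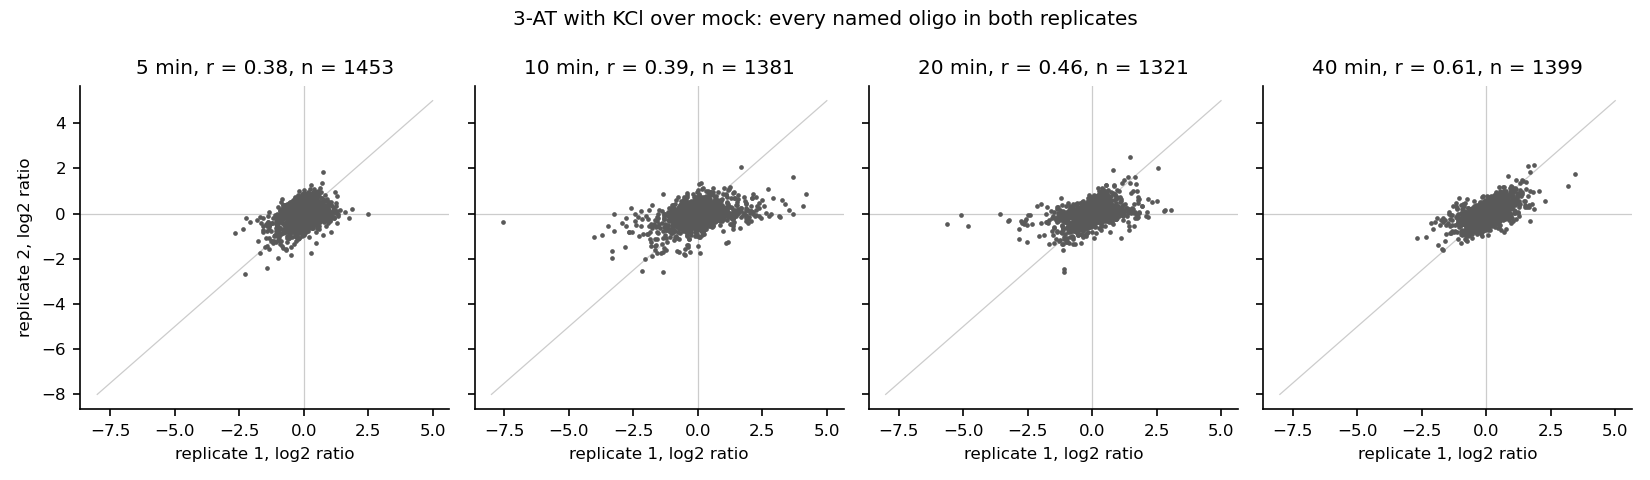
Each point is 1 named oligo, with its log2 ratio of the combined treatment over untreated cells in replicate 1 on the x axis and in replicate 2 on the y axis, at 5, 10, 20 and 40 min; the diagonal marks equal values. The correlation across oligos was 0.38, 0.39, 0.46 and 0.61, and at 10 and 20 min the largest values came from replicate 1.

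Many oligos differed from untreated cells at each time. In limma's moderated test with Benjamini-Hochberg adjustment over all 1457 oligos, 152 were higher and 191 lower at 5 min, which was 23.5% of those tested. At 10 min 272 were higher and 234 lower (34.7%), at 20 min 236 and 247 (33.2%), and at 40 min 240 and 235 (32.6%). Calls made with each replicate alone, the lone sample being assumed to vary like those of other groups, were fewer in common: 56 oligos at 5 min, 97 at 10 min, 78 at 20 min and 120 at 40 min had the same call both ways. Without replicate 1 the calls were 205, 228, 167 and 213 at the 4 times. Without replicate 2 they were 329, 502, 428 and 417.

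The genes for making ribosomes fell early. Of 27 oligos for 23 ribosome biogenesis genes, 21 were lower at 5 min and none was higher, 25 were lower at 10 min, 21 lower and 1 higher at 20 min, and 15 lower and 1 higher at 40 min. The background of lower calls over all oligos was 13.1%, 16.1%, 17.0% and 16.1% at these times. The median log2 ratio of the list was -0.92 at 5 min, -1.36 at 10 min, -0.96 at 20 min and -0.65 at 40 min, while that of all named oligos stayed between -0.01 and 0.04. At an unadjusted p under 0.05 in limma none of the list was higher at 5 or 10 min either. Without replicate 1, 15, 18, 17 and 5 of the 27 were lower, and without replicate 2 the counts were 14, 23, 17 and 11. KCl alone had list medians of -0.31, -0.31, -0.07 and -0.02 at the 4 times, and 3-AT alone had 0.58, 0.48, -0.22 and -0.48. A value of KCl alone derived within the batch of replicate 2, described with the comparison to KCl, had medians of -0.62, -0.26, -0.12 and -0.44. Replicate 2 itself had medians of -0.92, -1.12, -1.05 and -0.42, so at 40 min it did not lie below this derived value. Against KCl alone 15 of the list were lower and 1 higher at 20 min and 10 lower at 40 min, with 18.3% and 13.2% of all oligos lower. Against 3-AT alone 14 were lower and 1 higher at 20 min, and 1 was lower at 40 min, with 11.5% and 5.56% of all oligos lower.

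DBP2, a DEAD-box RNA helicase that takes part in rRNA maturation and mRNA processing, had the lowest value at 5 min, in its oligo 3. Its log2 ratios at 5, 10, 20 and 40 min were -2.26, -2.17, -1.10 and -1.59 in replicate 1 and -2.68, -2.54, -2.44 and -1.20 in replicate 2. Both replicates were lower at every time, and the mean at 5 min was -2.47 ± 0.30 (SE of the fit, n = 2, adjusted p = 2.81e-10, limma). The same oligo was at 1.54, 0.59 and 2.15 in the 3 replicates of 3-AT alone at 5 min, and at -1.98, -0.80 and -1.15 in KCl alone. At 5 min it thus stood above 0 in 3-AT alone and below 0 with KCl in the medium, with or without 3-AT.

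NOP1, the fibrillarin that methylates rRNA, was at -1.42 and -2.41 at 5 min and at -1.10 and -2.60 at 20 min (mean -1.85 ± 0.27, SE; adjusted p = 3.88e-08, limma). NSR1, the yeast nucleolin, fell to -1.5 and -1.47 at 5 min. NOG2, a GTPase of large subunit export, read -1.41 in both replicates at 5 min in its oligo 1. The replicates of both genes lay close together, and agreement of the replicates was among the grounds on which oligos were named. RRS1, which is needed for large subunit assembly, was at -2.03 in both replicates at 10 min (SE 0.32; adjusted p = 8.83e-08, limma). NOP56, a core protein of the box C/D small nucleolar RNPs, was at -1.46 and -1.28 at 20 min, where KCl alone had -0.05, -0.11, -0.32 and 0.18. Neither combined value overlapped the KCl values, and the difference was -1.3 ± 0.30 (SE; adjusted p = 0.000263, limma). PRP43, an RNA helicase that serves both splicing and ribosome assembly, fell by 1.23, 1.49, 1.51 and 0.66 at 5, 10, 20 and 40 min as means of both replicates.

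Some subunits of the polymerases that transcribe rRNA and tRNA were lower as well, mostly at 5 and 10 min. Of 6 oligos for RNA polymerase I and III subunits, 3 were lower at 5 min, 4 at 10 min, 2 at 20 min and 1 at 40 min, and none was higher, where 13.1%, 16.1%, 17.0% and 16.1% of all oligos were lower. Without replicate 1 the counts were 0, 1, 1 and 0, so the group's counts rest largely on replicate 1. RPC19, a subunit shared by both polymerases, was at -2.54 in replicate 1 and -1.26 in replicate 2 at 20 min, with a mean of -1.90 ± 0.24 (SE; adjusted p = 2.38e-10, limma). In KCl alone the 4 values ran from 0.26 to 0.69, and in 3-AT alone they were 0.34, -0.74 and 0.23. RPC19 differed from KCl alone by -2.44 and from 3-AT alone by -1.84, and neither group overlapped the combined values. RPA34, of RNA polymerase I, fell by 1.45 at 10 min and by 1.20 at 20 min, the latter a call that was lost without replicate 1 (adjusted p = 0.403, limma).

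**Figure D2:**
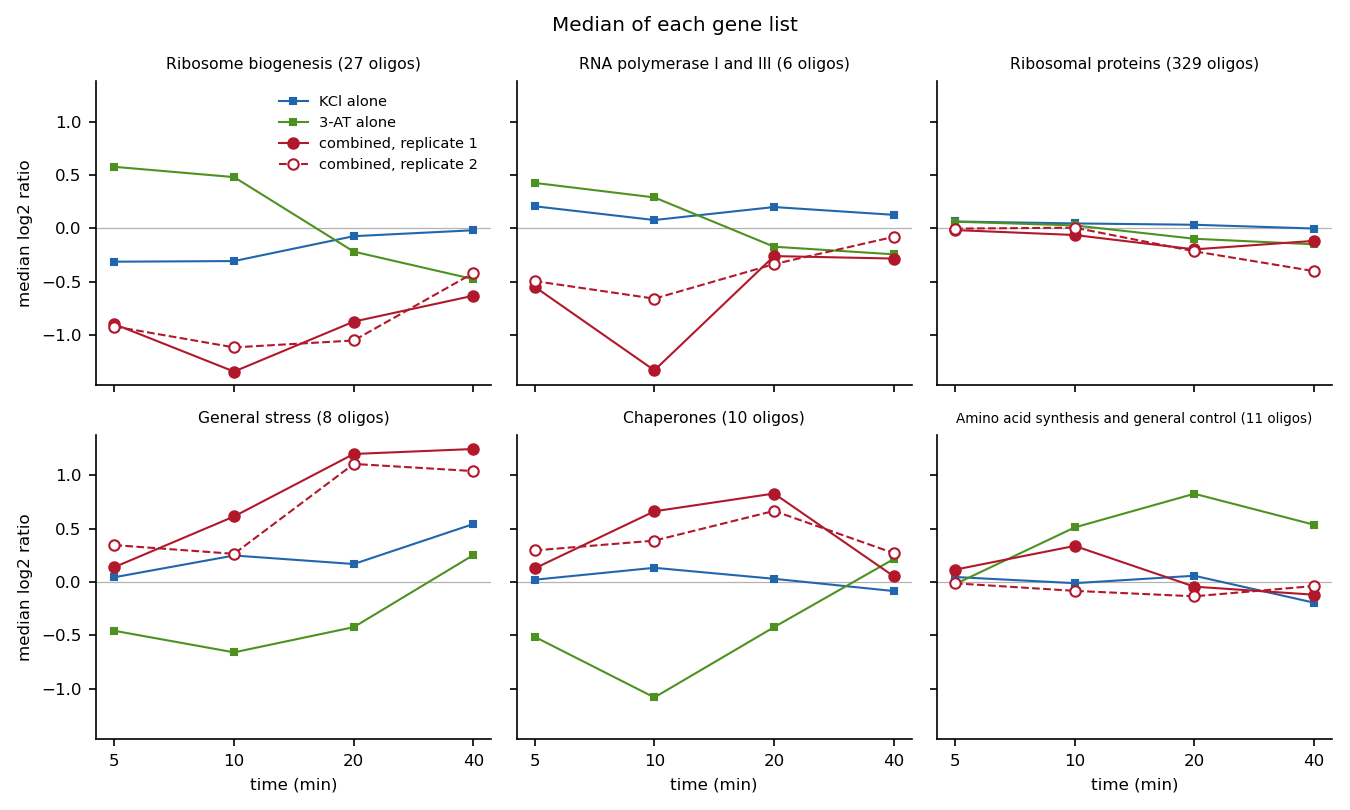
Median log2 ratio over control of 6 gene lists against time (5, 10, 20 and 40 min), with both replicates of the combined treatment drawn apart (red) beside the medians of KCl alone (blue) and 3-AT alone (green). The ribosome biogenesis median of the combined treatment reached -1.36 at 10 min in the mean of both replicates. The amino acid synthesis median of that mean was 0.29 at 10 min and -0.05 at 20 min, where that of 3-AT alone was 0.51 and 0.83.

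The ribosomal protein genes themselves moved later and by less. Of 329 oligos for 125 genes, 24 were higher and 52 lower at 5 min, 29 and 53 at 10 min, 10 and 100 at 20 min, and 10 and 99 at 40 min. The lower share of the list went from near the background at 5 and 10 min to well above it later. The list median was -0.02, -0.05, -0.22 and -0.21 at these times. Without replicate 1, 35 were lower at 20 min and 72 at 40 min. RPL36A, of the large subunit, was at -1.14 and -1.60 at 20 min in its oligo 3 (mean -1.37 ± 0.20, SE; adjusted p = 3.22e-08, limma), and RPL7A oligo 2 fell by 1.87 at 40 min, a call that was lost without replicate 1 (adjusted p = 0.125, limma). Many ribosomal protein genes have a near-identical second copy, and the oligos may not tell such copies apart.

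IMD4, which makes guanine nucleotides, and TEF4, a translation elongation factor subunit, were both among the lowest at 40 min. IMD4 oligo 2 fell by 1.68 ± 0.22 (SE; adjusted p = 1.3e-09, limma) and TEF4 oligo 1 by 1.65 ± 0.21 (adjusted p = 2.81e-10, limma). Both genes carry an intron that hosts a small nucleolar RNA. In 3-AT alone at 20 min TEF4 oligo 1 was also at -1.06 in the mean of the replicates from other batches.

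Some stress genes, among them GAC1, SSA4, ENA1 and GPD1, rose at 20 min with either replicate alone, while all but 1 of the higher calls of the stress lists at 10 min were lost without replicate 1. Of 8 oligos of the general stress list none passed limma's test at 5 min, where 2 were higher at an unadjusted p under 0.05, and 5 were higher at 10, 20 and 40 min. The list medians were 0.19, 0.85, 1.15 and 1.10 at the 4 times. Of 10 chaperone oligos 5 were higher at 10 min and 6 at 20 min, with 1 lower at each, and at 40 min 3 were higher and 1 lower. The chaperone medians were 0.21, 0.53, 0.78 and 0.15. Of 10 oligos for osmotic stress and glycerol genes 1 was higher at 5 min, 5 at 10 and 20 min and 4 at 40 min. SLN1, the osmosensor upstream of Hog1, was lower at 10 and 20 min, at -0.40 and -0.30 and then at -0.52 and -0.13, and both calls were lost without replicate 1 (adjusted p = 0.219 and 0.70, limma). The background of higher calls was 10.4%, 18.7%, 16.2% and 16.5% at the 4 times. Without replicate 1 the higher counts at 10 min were 1 of the general stress list and none of the chaperones or the osmotic list, with medians of 0.26, 0.39 and 0.06. At 20 min they were 3, 2 and 2, and at 40 min 2, 1 and 3. The 1 left at 10 min was GAC1, which replicate 1 did not measure there. Without replicate 2 they were 3, 4 and 5 at 10 min and 4, 3 and 5 at 20 min. ALD3, SSA3, SSA4 and HSP104 each stand in more than 1 of these lists.

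GAC1, the regulatory subunit that directs protein phosphatase 1 to glycogen synthase, had the highest mean at 20 min among oligos that both replicates supported. It was at 0.67 and 0.96 at 5 min, 2.55 and 2.04 at 20 min, and 1.39 and 1.47 at 40 min, and at 10 min the oligo was measured in replicate 2 alone, at 1.41. At 20 min KCl alone ran from 0.05 to 0.22 and 3-AT alone was at -0.60, 0.36 and -1.71. The combined values lay above all of these, with a mean of 2.29 ± 0.32 (SE; adjusted p = 9.02e-09, limma). SSA4, a heat-inducible Hsp70 chaperone, was at 1.67 and 1.62 at 20 min, while KCl alone lay between -0.27 and 0.27. HSP104, the disaggregase, was at 1.49 and 2.52 at 20 min (mean 2.00 ± 0.54, SE), and without replicate 2 its adjusted p was 0.137 (limma). SSE2, a nucleotide exchange factor of Hsp70, rose by 1.37 ± 0.24 (SE; adjusted p = 2.42e-06, limma).

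Some chaperones stood high in the combined treatment where each agent alone had left them low. SSA1, a constitutive Hsp70, was at 0.74 and 0.79 at 20 min in the combined treatment. It was at -0.10, -1.37, -0.89 and -0.45 in KCl alone and at -0.92, -0.41 and -1.75 in 3-AT alone. Every combined value lay above every single-agent value, and the mean of the combined treatment was above the sum of both single means by 2.5 ± 0.42 (SE; adjusted p = 2.9e-06, limma). SSA2, nearly identical to SSA1, was above that sum by 2.66 ± 0.49. Over all named oligos 13.5% lay above the sum past the test. Oligos were named for large values or differences, so the lack of overlap can follow in part from that choice. The 3-AT means in the sum had cells before treatment as control, and the KCl means had untreated cells of the same time. HSC82, an Hsp90 chaperone, was at 0.40 and 1.13 over untreated cells, which did not pass the test, and was above 3-AT alone by 2.17 ± 0.41 (SE; adjusted p = 2.66e-05, limma). SSB1, the Hsp70 that sits on the ribosome, went the other way and was lower at each time, with -0.93 and -0.96 at 40 min. Its call at 40 min was kept with either replicate alone. At 5, 10 and 20 min, where the means were -0.39, -0.39 and -0.46, the calls were lost without replicate 1 (adjusted p = 0.054, 0.0848 and 0.0888, limma), and those at 5 and 10 min also without replicate 2.

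Among osmotic genes ENA1 and GPD1 were called at 20 min, and ENA1 and CIN5 at 40 min, with either replicate alone. ENA1, the plasma membrane sodium pump, was at -0.40 and -0.36 at 5 min, -0.28 and -0.40 at 10 min, 1.14 and 1.34 at 20 min, and 1.70 and 1.85 at 40 min. KCl alone held it at -0.35, -0.40, -0.06 and -0.38 at 40 min, and 3-AT alone at 0.47 and 0.85. The 2 combined values thus lay above those of both single agents, and the difference from KCl alone was 2.07 ± 0.23 (SE; adjusted p = 1.2e-11, limma). The value at 40 min was above that at 5 min by 2.16 ± 0.27 (SE; adjusted p = 1.17e-09, limma). GPD1, the glycerol-3-phosphate dehydrogenase of glycerol production, was at 1.41 and 1.60 at 20 min and at 0.22 and 0.51 at 40 min. At 20 min KCl alone was at -0.33, -0.76, -0.42 and -0.16, and 3-AT alone at -0.12, 1.29 and -0.73. GPD1 was above KCl alone by 1.92 ± 0.37 (SE; adjusted p = 1.41e-05, limma). Its difference from 3-AT alone, 1.36, lost the call with the batch as a block, with arrays scaled to one spread and without 3-AT replicate 3.

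CIN5, a transcription factor of the Yap family tied to salt tolerance, was higher at each of the 4 times and reached 1.60 and 2.11 at 40 min (mean 1.85 ± 0.25, SE; adjusted p = 4.31e-09, limma). Its call at 5 min, where both replicates were near 0.68, was lost in 5 of the alternative settings, each replicate alone among them. The calls at 10 min, where it was at 1.09 and 0.87, and at 20 min, at 1.08 and 0.52, were lost without replicate 1 (adjusted p = 0.0844 and 0.403, limma). ALD3, a stress-induced aldehyde dehydrogenase, was at 1.72 and 1.32 at 20 min. Its adjusted p was 0.00561 with both replicates and 0.174 without replicate 1 (limma). HOG1 itself was at 0.17 and 0.20 at 20 min and SKO1, a transcription factor downstream of it, at 0.10 and -0.05, and neither passed the test.

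**Figure D3:**
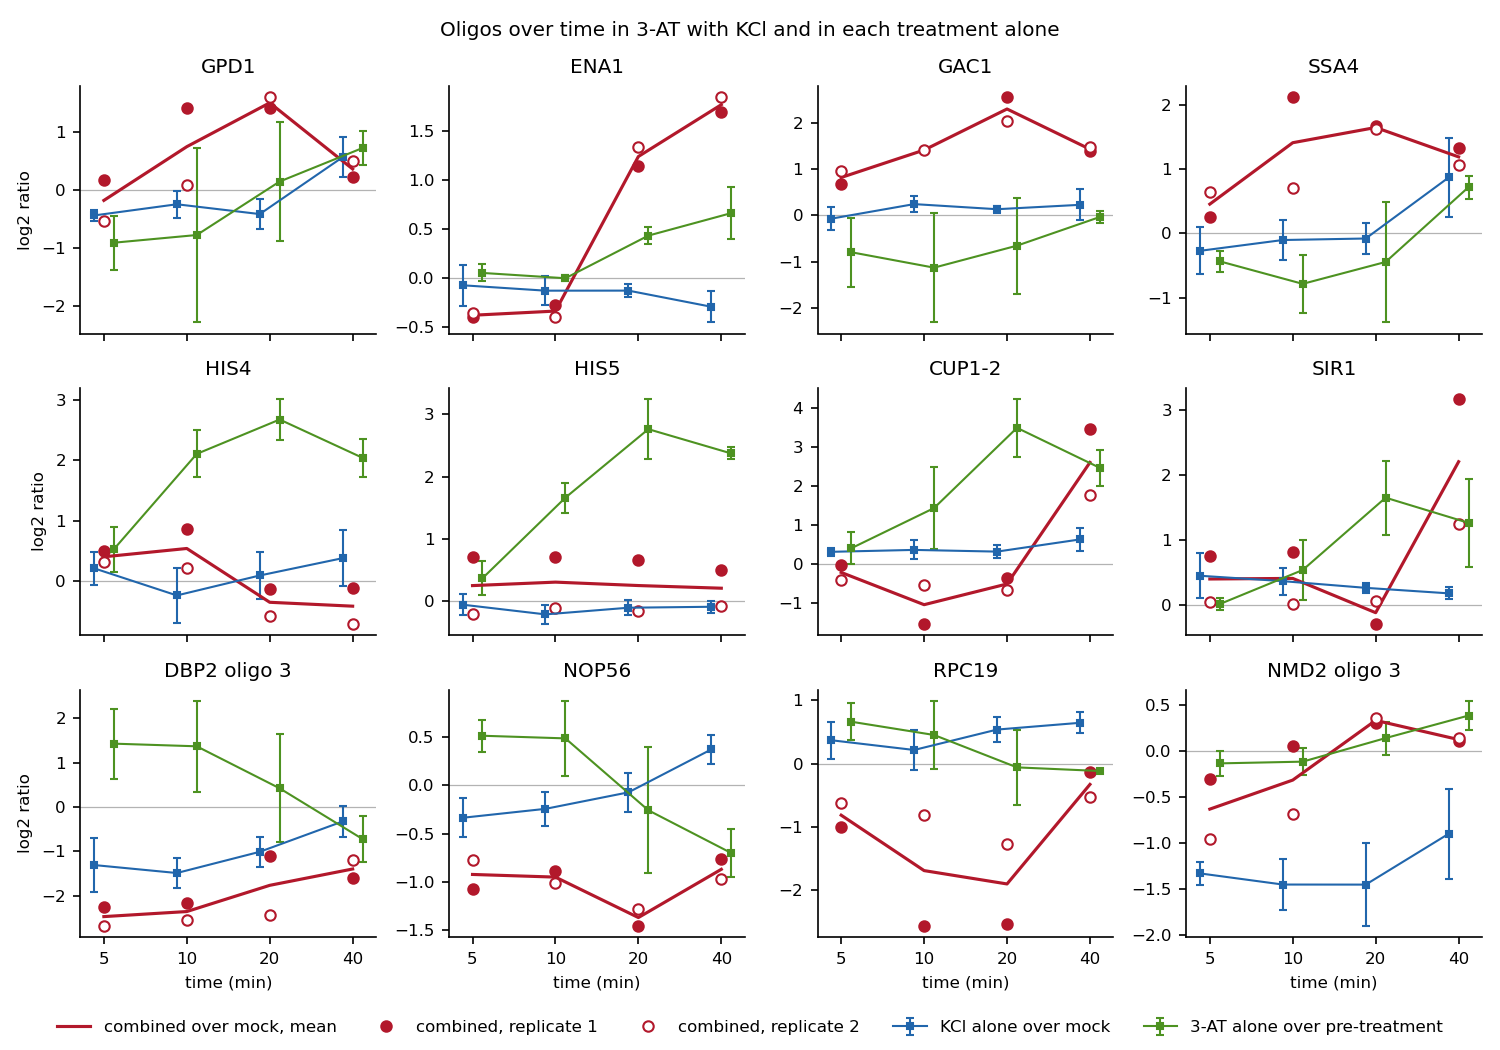
Log2 ratio over control against time (5, 10, 20 and 40 min) of single named oligos, with the mean (red line) and both replicates (circles) of the combined treatment beside the mean ± SD over replicates of KCl alone (blue) and 3-AT alone (green). ENA1 climbed from below 0 at 5 min to 1.70 and 1.85 at 40 min, and HIS4 stayed below 0 at 20 and 40 min where 3-AT alone was above 1.8.

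The genes of amino acid synthesis, which 3-AT alone raised, were not raised as a group at 20 or 40 min of the combined treatment. Of 11 oligos of that list, 1 was higher and 2 lower at 5 min, 3 and 2 at 10 min, 0 and 2 at 20 min, and 0 and 2 at 40 min, over untreated cells. The 3 higher calls at 10 min were GCN2, HIS2 and MET28, with HIS2 at 1.87 and -0.08 and MET28 at 1.56 and 0.05, so those of HIS2 and MET28 came from replicate 1. GCN2 was at 0.34 and 0.35, and its call was lost with either replicate alone (adjusted p = 0.215 without replicate 1 and 0.156 without replicate 2, limma). Against 3-AT alone 7 of the 11 were lower at 20 min and 5 at 40 min, and none was higher, where the background of lower calls was 11.5% and 5.56% (8.37% and 3.02% for higher calls). The list median was -0.05 at 20 min and 0.02 at 40 min in the combined treatment, and 0.83 and 0.54 in 3-AT alone.

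HIS4, which carries 3 steps of histidine synthesis, was at -0.13 and -0.57 at 20 min and at -0.12 and -0.71 at 40 min in the combined treatment. In 3-AT alone it was at 2.52, 2.44 and 3.06 at 20 min, and at 1.81 and 2.26 at 40 min. The groups lay far apart at both times, by -3.02 ± 0.45 at 20 min (SE; adjusted p = 7.74e-08, limma) and -2.45 ± 0.49 at 40 min (adjusted p = 0.000214, limma). HIS5, the histidinol phosphate aminotransferase, was at 0.66 and -0.16 in the combined treatment at 20 min and at 2.54, 2.43 and 3.32 in 3-AT alone. GCN4 itself was at -0.31 and -0.50, against 0.78, 0.13 and 0.80 in 3-AT alone, a difference of -0.98 ± 0.29 (SE; adjusted p = 0.00849, limma). MET28, a cofactor of sulfur amino acid regulation, and ADE12, adenylosuccinate synthase, differed from 3-AT alone by -1.68 and -1.85.

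The control differed between these treatments, being untreated cells of the same time for the combined treatment and cells before treatment for 3-AT alone, and a difference of control and a difference of treatment cannot be told apart. No array of untreated cells over cells before treatment was used here. Replicate 2 of the combined treatment and replicate 1 of 3-AT alone shared a batch, as read from the numbering of the arrays. Within it the HIS4 values at 20 min were -0.57 and 2.52, and the HIS5 values were -0.16 and 2.54.

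The same was seen over oligos chosen on other arrays. In the 2 replicates of 3-AT alone from other batches, 15 oligos of 15 genes were raised by 1 or more at 20 min, with a median of 1.58. In the 3-AT replicate of the shared batch 15 of the 15 were above 1 again, with a median of 1.63. In the combined treatment their medians were -0.11 in replicate 1, with 6 of 14 measured above 0, and -0.16 in replicate 2, with 4 of 15 above 0. None of the 15 was above 1 in replicate 2. Besides HIS4, HIS5, MET28 and ADE12 these were SST2, ECM32, TEA1, RIM101, LYS14, MET22, GAT2, SIR1, CUP1-2, HRB1 and GLN3. LYS14, the activator of lysine synthesis, was at -0.09 and 0.00 in the combined treatment against 1.45 in the 3-AT replicate of the batch. SST2, which ends pheromone signals, was at -0.34 and -0.42 against 1.63. ECM32, a DNA helicase, was the 1 oligo of the 15 above 1 in replicate 1, at 1.39, and it was at 0.12 in replicate 2.

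**Figure D4:**
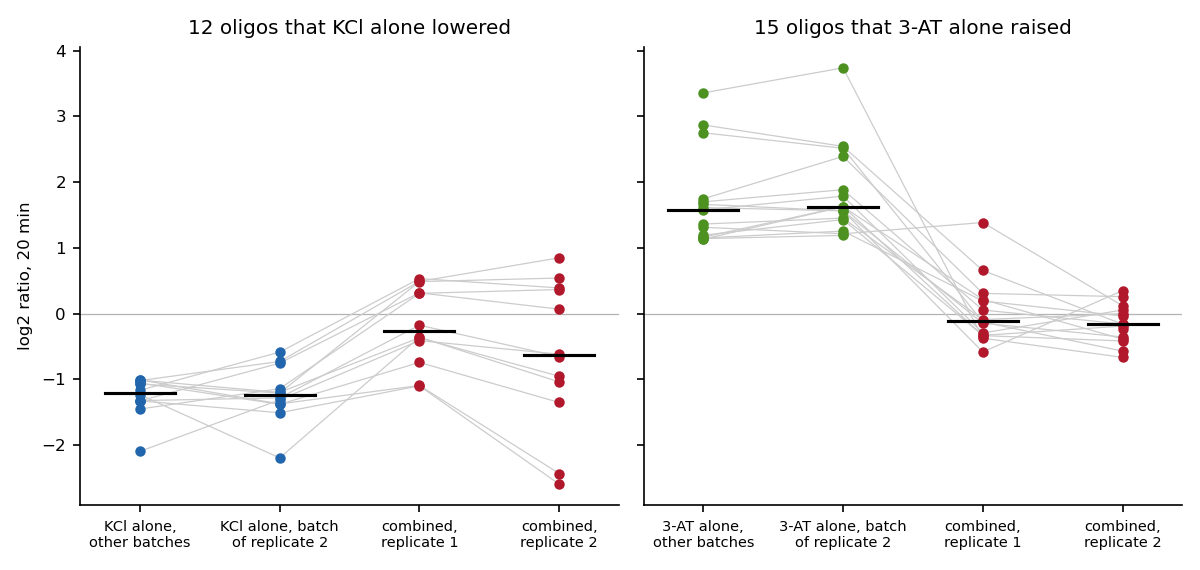
Log2 ratio at 20 min of the oligos that one agent alone moved by 1 or more in other batches, each line 1 oligo, read in those choosing arrays, in the same single treatment within the batch of combined replicate 2, and in each replicate of the combined treatment. The 15 oligos that 3-AT alone raised had medians of 1.58 and 1.63 in 3-AT alone and of -0.11 and -0.16 in the combined treatment, and the 12 that KCl alone lowered split into some that stayed low and others above 0.

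CUP1-2 and SIR1 were the members of those 15 that stood out later. CUP1-2, a copper-binding metallothionein, was at -0.38 and -0.67 at 20 min and at 3.44 and 1.75 at 40 min in the combined treatment. In 3-AT alone it was already at 3.74, 2.65 and 4.06 at 20 min, and at 2.79 and 2.13 at 40 min. Its difference from 3-AT alone at 20 min was -4.01 ± 0.59 (SE; adjusted p = 8.13e-08, limma), and at 40 min the ranges of both treatments overlapped. Without replicate 1 its adjusted p over untreated cells at 40 min was 0.0519 (limma). The oligo of CUP1-1, a tandem copy of the same gene, did not follow it and was at 0.00 and -0.12 at 40 min. SIR1, a silencing protein of the mating-type loci, was at -0.30 and 0.05 at 20 min and at 3.16 and 1.24 at 40 min, against 1.79, 1.02 and 2.13 at 20 min in 3-AT alone. At 40 min 2 of the 15 were above 1 in replicate 2, and these were the ones.

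Against KCl alone, 247 oligos were higher and 267 lower at 20 min (35.3% of those tested) and 173 and 192 at 40 min (25.1%). No batch held both the combined treatment and KCl alone over untreated cells, so batch and treatment cannot be told apart in this comparison. One value of KCl alone could be derived within the batch of combined replicate 2, as KCl with the casein kinase inhibitor TBB over untreated cells minus the same over KCl alone, and the difference of replicate 2 from it is called the difference within the batch here. At 20 min it was 1.96 for GAC1, 1.94 for GPD1, 2.59 for SSA4, 2.53 for SSA1, -1.39 for NOP56 and -1.75 for RPC19, and at 40 min it was 1.94 for ENA1. These kept the direction of the fitted differences. Replicate 2 also enters the fit, and these oligos were named for large fitted values or differences, so the direction was largely set by the choice. For the chaperone list, which holds SSA4 and SSA1, the derived value lay below KCl alone. Its list medians were -0.83, -0.14, -0.29 and -0.80 at 5, 10, 20 and 40 min. Those of the KCl replicates were 0.02, 0.13, 0.03 and -0.09. A lower derived value makes the difference within the batch larger, so its size for SSA4 and SSA1 is uncertain. Across oligos, replicate 2 correlated with the replicates of KCl alone at a median of 0.61 at 5 min, 0.60 at 10 min, 0.17 at 20 min and 0.29 at 40 min. Replicate 1 gave 0.16, 0.14, -0.02 and 0.32. With 3-AT alone the medians were -0.33, -0.35, 0.04 and 0.50 for replicate 2, and -0.33, -0.31, 0.08 and 0.36 for replicate 1. The 3-AT replicates differed in sign at 10 and 20 min. For replicate 2 the correlations ran from -0.44 to 0.09 at 10 min and from -0.17 to 0.46 at 20 min. For replicate 1 they ran from -0.48 to 0.13 and from -0.03 to 0.32.

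PPZ2, a phosphatase that acts on salt tolerance, was at 1.81 and 0.65 at 20 min and at 1.43 and 1.45 at 40 min. It was above both single agents at both times, with differences between 1.11 and 1.5. Within the batch it was above KCl by 1.03 and 1.43 at these times. HAP5, a subunit of the CCAAT-binding factor that governs respiration genes, did the same, at 1.17 and 1.51 at 40 min (mean 1.34 ± 0.16, SE; adjusted p = 7.34e-11, limma). Against KCl it was above by 1.34 in the fit and by 0.69 within the batch at 20 min, and by 1.26 and 1.29 at 40 min.

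KCl alone raised 6 oligos by 1 or more at 20 min in the mean. In the combined treatment 4 of the 5 measured were above 0 in replicate 1 and 6 of 6 in replicate 2, with medians of 0.39 and 0.87. Some of what KCl alone lowered was not low in the combined treatment. In the KCl replicates 12 oligos were at -1 or below at 20 min in the mean, with a median of -1.20, and the derived KCl value of the shared batch was below 0 for 12 of the 12. In the combined treatment 7 of the 12 were below 0 in each replicate, with medians of -0.27 and -0.64. NOP1, DBP2 oligo 3 and GSP1, the yeast Ran GTPase, were low in both replicates. AZF1, SUP61, SMP1, MSL5 and NMD2 oligo 3 were above 0 in both. AZF1, SMP1, MSL5, GSP1 and several genes of the 3-AT set above are named for lying in these sets, and their values were seen before they were named.

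NMD2, a factor of nonsense-mediated mRNA decay whose gene carries an intron, was the clearest of these in its oligo 3. In KCl alone at 20 min the oligo was at -0.90, -2.00, -1.5 and -1.42, and the derived value was -1.14. In the combined treatment it was at 0.31 and 0.37 at 20 min, after -0.31 and -0.96 at 5 min. The difference from KCl alone at 20 min was 1.79 ± 0.25 (SE; adjusted p = 2.47e-08, limma). The serine tRNA gene SUP61 was at 0.49 and 0.85 in the combined treatment and between -1.22 and -0.65 in KCl alone. QCR10, a subunit of respiratory complex III, was at 0.54 and 0.58 in its oligo 2, against -0.60 to -1.31 in KCl alone. For all 3 oligos the groups did not overlap, and the differences within the batch were 1.51 for NMD2, 1.58 for SUP61 and 1.37 for QCR10. NMD2 and SUP61 were in the set chosen for low values in KCl alone. QCR10 oligo 2 was named for its difference from KCl alone, so the lack of overlap followed in part from these choices. RPP0, a ribosomal stalk protein, was at -0.41 and -0.62, which did not pass over untreated cells, and above KCl alone by 1.58 ± 0.31 (SE; adjusted p = 1.98e-05, limma). Within the batch RPP0 was above KCl by 0.70.

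Other oligos went below KCl alone. RPS25B, a small subunit protein, was at -1.85 and -0.95 in its oligo 1 at 20 min, against 0.62, 0.98, 0.47 and 0.95 in KCl alone and 1.05 in the derived value. The difference was -2.15 ± 0.26 (SE; adjusted p = 1.51e-10, limma). RPL41A, of the large subunit, was at 0.14 and 0.29 at 40 min, against 1.19 to 1.87 in KCl alone. The fitted difference was -1.45 and that within the batch -2.82. For PRP43 the fit gave a difference from KCl alone of -1.14 at 20 min, and against the derived value it was -0.10, so that difference was not seen within the batch.

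**Figure D5:**
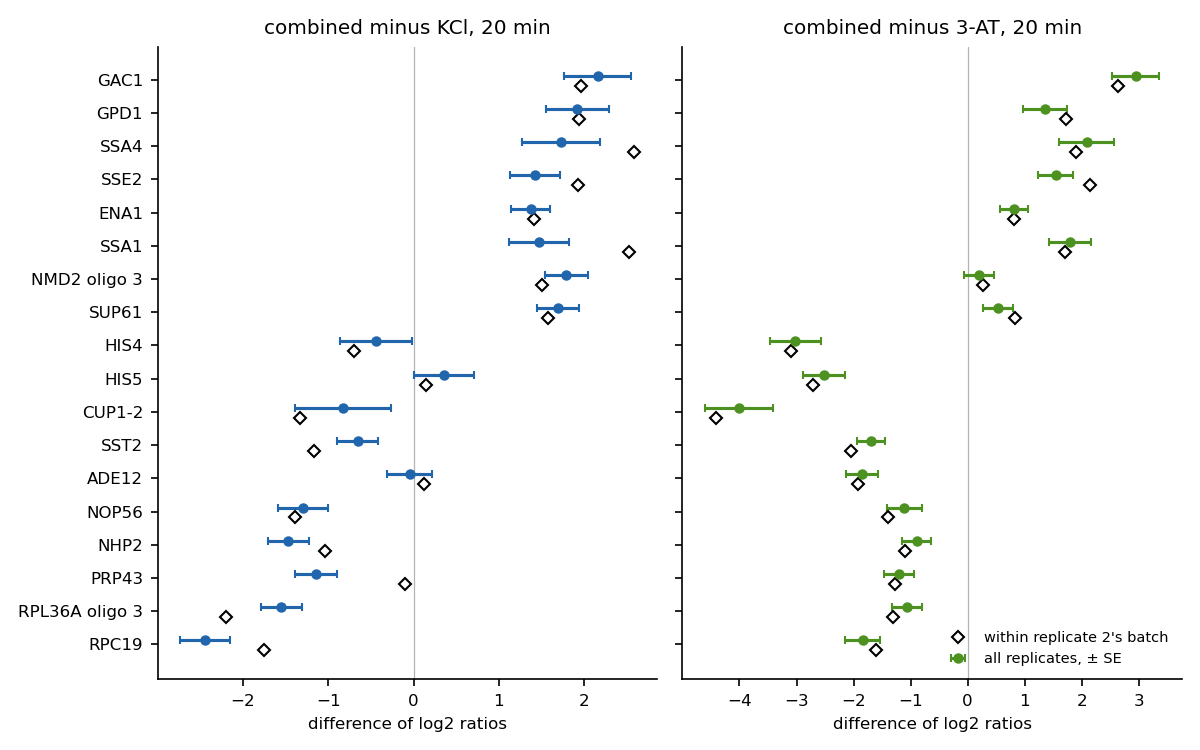
Differences of log2 ratios at 20 min between the combined treatment and KCl alone, and between the combined treatment and 3-AT alone, for 18 of the oligos described; points with bars are fitted differences over all replicates ± SE, and diamonds are the differences within the batch of combined replicate 2. NMD2 oligo 3 differed from KCl alone by 1.79 and RPC19 by -2.44, and HIS4 and CUP1-2 differed from 3-AT alone by -3.02 and -4.01.

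Against 3-AT alone, 122 oligos were higher and 167 lower at 20 min (19.8%) and 44 and 81 at 40 min (8.58%). With the batch as a block the counts were 265 and 177. The replicates of 3-AT alone differed at 20 min. Replicates 1 and 3 correlated with each other at 0.84 across oligos, and replicate 2 with them at 0.33 and 0.53. PGK1, the phosphoglycerate kinase of glycolysis, was at 0.47 and 0.95 in the combined treatment and above 3-AT alone by 1.46 ± 0.27 (SE; adjusted p = 1.8e-05, limma). When the means of both single agents were added, the combined treatment departed from the sum for 197 oligos above and 197 below at 20 min (27.0%). CUP1-2 was the farthest below, at -4.32. The single means in this sum had different controls, as described above.

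Fewer oligos passed in the comparison of times. Between 5 and 40 min 65 oligos were higher and 65 lower (8.92% in all and 4.46% each way), and with the batch of the replicates as a block the count was 1, with 188 at an unadjusted p under 0.05. MF(ALPHA)1, the gene of the alpha-factor mating pheromone, was at 0.06 and 0.08 at 5 min, -0.61 and -0.25 at 20 min, and -1.88 and -1.38 at 40 min. At 40 min 3-AT alone was at 0.45 and 0.94, and KCl alone between -0.04 and 0.61, so the combined values lay below both. Within the batch the difference from KCl was -1.18. The mean at 40 min was -1.63 ± 0.26 (SE; adjusted p = 2.77e-07, limma). GAL4, the activator of galactose genes, was at 1.53 and 1.41 at 40 min, with KCl alone between -0.15 and 0.08, and 1.37 above it within the batch. RRT8 oligo 2 was higher at each time, at 0.69 and 1.35 at 5 min, 3.67 and 1.62 at 10 min, 1.48 and 1.36 at 20 min, and 1.85 and 2.14 at 40 min. At 40 min it was above KCl alone by 2.10 ± 0.35 (SE; adjusted p = 2.49e-06, limma), and by 1.47 within the batch. UBC8, a ubiquitin-conjugating enzyme of the breakdown of gluconeogenic enzymes, was at 0.73 and 0.71 at 5 min and 0.95 and 1.00 at 40 min in its oligo 3, and it too was higher at each time. HMRA2, at the silent mating-type cassette, rose by 0.67, 0.92, 1.3 and 1.3 at the 4 times.

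HAC1, the transcription factor of the unfolded protein response, whose mRNA is spliced in the cytoplasm, rose in 3 oligos at 20 and 40 min. Oligo 1 was at 0.41 and 1.10 at 20 min and at 0.98 and 1.20 at 40 min (mean 1.09 ± 0.19, SE; adjusted p = 3.13e-06, limma). Of 6 oligos of the unfolded protein response list 4 were higher at 20 min and 5 at 40 min, where 16.2% and 16.5% of all oligos were higher, and without replicate 1 the counts were 2 and 1. The 6 oligos of the list stood for 4 genes, and 3 of the 6 were for HAC1, so its counts are not counts of separate genes. KAR2, the Hsp70 of the endoplasmic reticulum, was at 0.16 and 0.67 at 20 min and did not pass.

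The other lists are read against the shares of all oligos, which were 10.4%, 18.7%, 16.2% and 16.5% higher and 13.1%, 16.1%, 17.0% and 16.1% lower at the 4 times. Of 98 splicing factor oligos 16 were higher and 5 lower at 5 min, 24 and 12 at 10 min, 22 and 11 at 20 min, and 35 and 5 at 40 min, with a median of 0.25 at 40 min. Their higher share lay above that of all oligos and their lower share below it at each time, by most at 40 min. Without replicate 1, 19 were higher and 1 lower at 40 min. Of 29 RNA decay oligos 13 were lower at 5 min and none was higher, and at 40 min 6 were higher and 3 lower. Of the 13, 9 were subunits of the exosome, the nuclease complex that also trims rRNA. RRP4 was at -0.81 and -0.86 and MTR3 at -0.50 and -0.66. DHH1, a decapping activator, rose at 20 min (0.41 and 0.74) and at 40 min (0.38 and 0.91). Without replicate 1, 5 of the list were lower at 5 min. Of 21 cytoskeleton oligos 6 were higher and 3 lower at 20 min, and without replicate 1 the counts were 2 and 1. Of 8 mating oligos 2 were higher and 1 lower at 20 min, and without replicate 1 none was either. FUS3, a kinase of the pheromone pathway, was lower at all 4 times, with means of -0.58, -0.92, -0.68 and -0.79. Without replicate 1 its calls at 5, 20 and 40 min were lost (adjusted p = 0.0582, 0.46 and 0.294, limma). Of 4 nitrogen catabolite repression oligos none passed limma's test at 5, 10 or 20 min, and none did at an unadjusted p under 0.05. At 40 min DAL80, a repressor of nitrogen catabolism genes, was higher by 1.02, a call that was lost without replicate 1 (adjusted p = 0.81, limma), and 1 other was lower at an unadjusted p under 0.05. Of 5 oligos of glucose and energy metabolism 1 was higher and 2 lower at 20 min.

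Oligos of one gene did not always move together. For the 231 genes with 3 or 4 oligos, each oligo was set against the mean of the gene's others that were measured in the same replicate. At 20 min 94 of 702 such differences were positive and 87 negative past the test (25.8%), in 110 genes. Leaving out replicate 1 left 23 such calls, and leaving out replicate 2 left 191. A call was seen in 50 of 98 ribosomal protein genes (51.0%) and in 60 of 133 other genes (45.1%). Against KCl alone 103 differences were higher and 119 lower (31.6%), in 131 genes.

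RPS25B gave a difference on which the replicates lay close together. Its oligo 3 stood above the gene's other oligos by 1.28 and 1.27 at 20 min, while in KCl alone it stood at -0.71 ± 0.24 (SD, n = 4) against them. The shift between treatments was 1.98 ± 0.21 (SE, limma). In 3-AT alone it also stood above them, by 0.81 ± 0.11 (SD, n = 3). RPL42B oligo 2 was at 0.55 and 0.63 above the gene's others, against -0.87 ± 0.32 (SD, n = 4) in KCl alone and -0.14 ± 0.33 (SD, n = 3) in 3-AT alone. QCR10 oligo 2 was at 0.46 and 0.27 above its partners, against -1.51 ± 0.34 (SD, n = 4) in KCl alone and 0.61 ± 0.13 (SD, n = 3) in 3-AT alone. Replicate 1 did not measure QCR10 oligo 3, so its 0.46 was taken against the remaining partner only and is not the same measure as 0.27. NMD2 oligo 3 was at -0.23 and 0.16, and at -1.54 ± 0.55 (SD, n = 4) in KCl alone. This 1 low oligo in KCl alone was thus level with the others in the combined treatment. In 3-AT alone it stood at 0.30 ± 0.22 (SD, n = 3). RPS25B, RPL42B, QCR10 and NMD2 were named for a large difference from KCl alone, so their distance from KCl alone follows from that choice. PFY1, profilin, had oligo 1 above the others by 0.54 and 1.5, a call that was lost without replicate 2 (adjusted p = 0.122, limma). KCl alone had it above them by 0.62 ± 0.15 (SD, n = 4).

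Some of the most extreme values at 20 min came from replicate 1 alone. PUS7, a pseudouridine synthase, was at -5.62 in replicate 1 and -0.46 in replicate 2, and ADA2, a SAGA subunit, at -5.08 and -0.06. MCM5, a subunit of the replicative helicase, was at 2.82 and 0.16, MIG3, a repressor, at 2.80 and 0.12, and CHA4, an activator of serine use, at 3.08 and 0.16. Each passed the test with both replicates and none did without replicate 1. At 10 min RPS29A oligo 2 was at -7.57 and -0.37. When a replicate's value was kept for oligos with 3 or more measured copies, the values of PUS7, ADA2, MCM5, MIG3 and RPS29A oligo 2 in replicate 1 dropped out and their calls were lost.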

How the data were processed

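The deposited values are one number per spot and array, read here as a log2 ratio of the first labelled channel over the second. Neither the logarithm's base nor a centring or normalization step is stated in the labels, and none was added. How the authors processed the scans is not given in the sources used here. The number of arrays limits the precision. Dyes, treatments and times came from the labels per array, and dye effects followed the labels in 282 of 282 swapped pairs. Batches and shared hybridisation numbers were read from the titles.

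The 6 copies of an oligo were averaged (median SD between copies 0.14, against 0.39 between random sets), then dye swaps, so that a swapped pair is 1 replicate. Gene names came from the platform annotation table. Replicate values of 73 groups (179 values) were fitted with limma 3.58.1 in R 4.3.3 (lmFit, eBayes, 106 residual degrees of freedom), since the groups share 1 estimate of spread, with contrasts between treatments and Benjamini-Hochberg adjustment over 1457 named oligos, or 702 within-gene differences, at a two-sided threshold of 0.05. The fit was tested on simulated data. Replicate numbers come from batches. Across oligos, deviations from the group means at 5 and at 40 min correlated at 0.22, and the fit with the batch as a block is an alternative.

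Named oligos were the 12 highest and 12 lowest at 20 min with the same sign in both replicates, the 5 highest and 5 lowest at the other times, the 6 highest and 6 lowest of each difference, and up to 4 members per list; the text gives those that serve its description, and other members by list. Where values of a named oligo did not overlap those of a single agent, this can follow in part from how oligos were named. The combined treatment, the lists and the tests were chosen with earlier results of these data known. A few genes are not reported here.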

Additional observations from a re-analysis of the deposited data

Results flagged for a closer look

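Between 5 and 40 min of the combined treatment, the difference itself passed limma's test for 12 named oligos, and these are given as values. The differences of log2 ratios, 40 min minus 5 min, were 2.82 for CUP1-2, 2.16 for ENA1, 1.80 for SIR1, 1.60 for YAP6, 1.59 for NUP100 and 1.54 for RPL35A oligo 3. They were -1.70 for MF(ALPHA)1, -1.12 for RPL37A oligo 2, -1.02 for MRK1 oligo 3, -0.99 for RPS16B oligo 2, -0.99 for SPO1 oligo 1 and -0.95 for RPS0A oligo 2. With the batch of the replicates as a block, 11 of the 12 lost the call, and ENA1 kept it. Without replicate 1 the calls of CUP1-2, MF(ALPHA)1, MRK1 oligo 3, NUP100, RPL35A oligo 3, SIR1, SPO1 oligo 1 and YAP6 were lost, and without replicate 2 those of RPS0A oligo 2 and RPS16B oligo 2.

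In the 4 replicates of KCl alone at 40 min, 1 sample lay far from the other 3 for 2 oligos. For ENA1 it was at -0.0611, against -0.40 to -0.35 in the rest, and for RPL41A it was at 1.19, against 1.76 to 1.87. These were 2 of 24 sets of 4 samples examined, where chance marks about 1 in 20. In both oligos the combined values lay outside the range of the 4 samples.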

How the results depend on the processing

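Over the named oligos, 1932 of 2106 recomputed values kept their direction and their side of the threshold, and 160 kept the direction and missed the threshold. Of the within-batch values, which were not tested, 12 stayed the same, counted in the 1932, and 12 moved by more than 1 SD. The other 2 recomputed values turned in direction. Both of the last were RPS16B oligo 3 against KCl alone within its gene, at 0.59 without replicate 1 and with 3 or more copies required, where replicate 1 dropped out, and it was -3.71 without replicate 2. Of the 160, 69 came from leaving out replicate 1 and 36 from requiring 3 or more copies, an alternative chosen after seeing the data.

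With single replicates of any treatment left out, the calls ran from 205 to 329 at 5 min, 228 to 502 at 10 min (87 higher and 141 lower without replicate 1), 167 to 428 at 20 min and 213 to 417 at 40 min. Against KCl alone they ran from 207 to 580 at 20 min and 197 to 332 at 40 min, and against 3-AT alone from 122 to 340 and 29 to 206. The ranges were 34 to 136 for 40 against 5 min, 179 to 490 for the departure from the sum, and 23 to 191 and 102 to 251 for differences within genes, over untreated cells and against KCl alone. Without 3-AT replicate 3, the calls against 3-AT alone at 20 min were 175 and those departing from the sum 250, and without 3-AT replicate 1 or 2 the calls at 40 min were 45.

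When groups with the control in channel 1 entered the fit, 241 oligos differed from KCl alone at 40 min, 77 from 3-AT alone at 40 min and 51 between 40 and 5 min. With arrays scaled to one spread the counts were 232 against KCl alone at 40 min, 40 between times and 94 within genes. With the 3 courses fitted by themselves, 68 differed from 3-AT alone at 40 min. Without the oligos above the 0.75 quantile of noise, 64 differences within genes passed, and 108 against KCl alone, where fewer were tested. A random batch block gave 219 calls between times, and the replicate block with batch as a fixed term gave 1 (188 at an unadjusted p under 0.05, with 3 residual degrees of freedom). Against 3-AT alone that block gave 265 at 20 min and 177 at 40 min.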
